A study of Mus musculus and Homo sapiens with 32 samples.

Results

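The genes described here encode the serine/arginine-rich splicing factors (Srsf), the heterogeneous nuclear ribonucleoproteins (Hnrnp) and the proteins named for an RNA-binding motif (Rbm). They were taken by symbol, without Rbm15, Rbm15b and Hnrnpa2b1, and number 67 of the 11197 genes with a listed position: 10 Srsf, 19 Hnrnp and 38 Rbm genes. They hold 132 of the 33473 regions in the table that compares genotypes. In bulk m6A-CT an antibody against the RNA mark m6A (N6-methyladenosine) directs a transposase to RNA paired with its cDNA in nuclei, and input libraries are tagmented without antibody. The genotype set comprised C57BL/6 mouse embryonic stem cells, either wild-type or Mettl3-/- (KO), with 2 m6A-CT and 2 input libraries each. Mettl3 is the catalytic subunit of the m6A writer. Peak lists came from E14 mouse embryonic stem cells, with nuclei labelled as 100K, 25K or 5K per assay, from expanded potential stem cells (EPSC) labelled with the E14 line, and from mouse embryonic fibroblasts (MEF) labelled CF1, the last 2 at 100K nuclei. No treatment, time course or animal age is given for any group, and the labels do not say whether the knockout line is 1 clone or which part of Mettl3 it lacks. The antibody is labelled as Synaptic Systems for E14, EPSC and MEF and as MilliporeSigma for the genotype set, so antibody and set cannot be told apart. The protocol text, shared by every sample, names the Synaptic Systems antibody and, as far as it was read here, does not mention the genotype set, so the antibody of that set rests on its label.

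SR proteins bind exonic sequences and recruit the spliceosome through their arginine/serine domains. Proteins of the hnRNP class coat nascent RNA, often repress exons, and also act in RNA export, stability and translation. The Rbm name covers unrelated proteins that share an RNA recognition motif, among them an exon junction factor, nucleolar proteins and splicing regulators. Many SR and hnRNP genes control their own output through alternative exons that send the transcript to nonsense-mediated decay. N6-methyladenosine is laid down in the nucleus, mostly near stop codons and in long internal exons, and several hnRNPs have been studied as proteins whose binding it alters.

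The table gives 1 RPM value (reads per unit of library size) for each genotype and library kind. How the 2 libraries of a group entered it is not stated, and no spread between replicates can be given. All intervals are 95% counting intervals, and PCR reads are not independent molecules. Totals recovered from these columns were, for m6A-CT, 39310394 (wild-type) and 37532658 reads (Mettl3 KO), and for input 45090626 and 51031598. Reads outside the ribosomal precursor Rn45s and the repeat-bearing Lars2 made up 63.5 and 45.5% of the m6A-CT totals and 23.6 and 19.0% of the input totals. Leaving those 2 genes out of the totals therefore divides every wild-type ratio of m6A-CT over input by 2.69 and every Mettl3 KO ratio by 2.40. Mettl3 itself had 1 region, with 1.71 RPM of input in wild-type against 2.47 RPM in Mettl3 KO, and because the deleted part is not given this value does not check the label. Of 8 embryonic stem cell markers, 6 had a MeTPeak peak in wild-type against 7 in Mettl3 KO, while no fibroblast marker had one in either genotype.

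At the listed regions, the members carried m6A-CT signal over input in both genotypes, with less of a gap between genotypes than genes at large. In each gene, the region with the most reads (at least 50) stands for it, which 49 members had: 7 Srsf, 14 Hnrnp and 28 Rbm genes. Their median ratio of m6A-CT to input RPM was 2.54 in wild-type against 2.36 in Mettl3 KO, against 3.50 and 2.12 over all 8583 genes. The interval of the wild-type ratio lay above 1 for 39 of 49 members (all genes 85.5%), and that of the Mettl3 KO ratio for 38 of 49 (all genes 73.7%). It lay below 1 in wild-type for 6 of 49 (all genes 4.71%). With Rn45s and Lars2 left out of the totals, the counts above 1 were 18 of 49 (all genes 49.0%) and 16 of 49 (all genes 27.3%), so a ratio above 1 rests on the choice of totals. The medians on that scale were 0.943 and 0.984 for members and 1.30 and 0.883 for all genes.

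**Figure D1:**
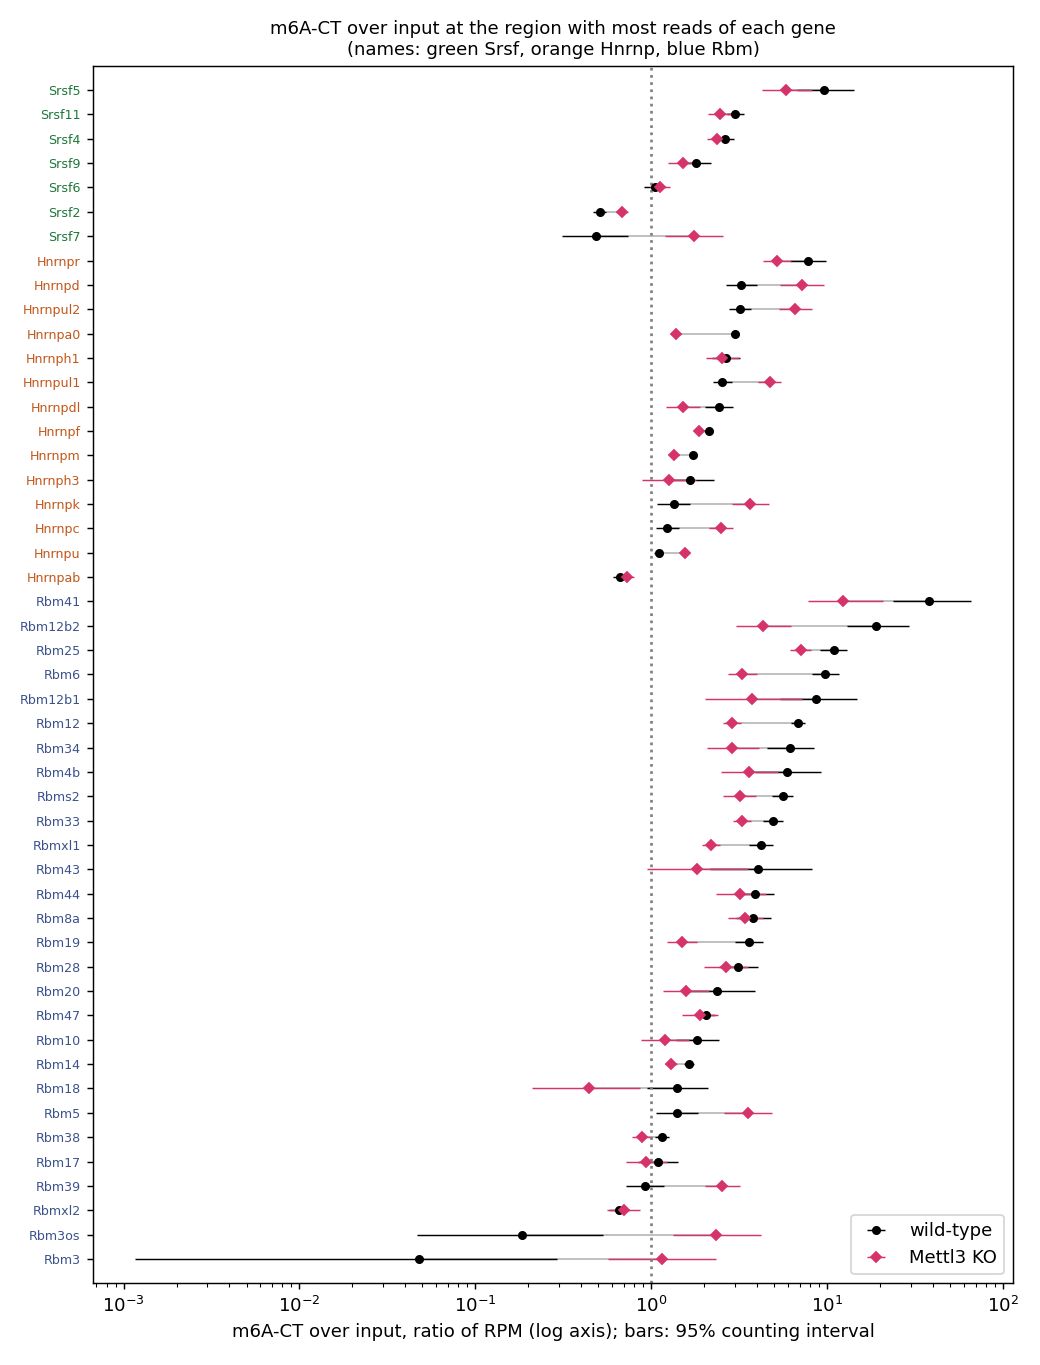
Ratio of m6A-CT to input RPM on a log axis at the region with most reads of each of the 49 genes, with wild-type as black circles, Mettl3 KO as pink diamonds and bars for the 95% counting interval. Rbm41 stands highest in wild-type at 38.1, Srsf2 and Hnrnpab lie below 1 in both genotypes, and the dotted line marks equal RPM.

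Most members lost m6A-CT over input in Mettl3 KO, though a smaller share than of all genes. In the authors' deposited table, 39 of 49 members were lower in Mettl3 KO at a false discovery rate (FDR) under 0.05 (all genes 89.7%) and 10 of 49 were higher (all genes 10.3%). By family, in the authors' deposited table, 6 of 7 Srsf, 9 of 14 Hnrnp and 24 of 28 Rbm genes were lower. The median log2 change in the authors' deposited table was -0.76 for members and -1.25 for all genes, with -0.66 for Srsf, -0.57 for Hnrnp and -1.11 for Rbm genes. Counted over regions, 102 of 132 were lower (all regions 88.8%) and 30 of 132 higher (all regions 11.0%) in the authors' deposited table. As 99.8% of all its regions pass FDR 0.05, a gene with no region has no call. A region with few reads is then listed only if its change is large. The part of reads per region in the difference between members and all genes was not tested. The 16 members without one were Srsf1, Srsf3, Srsf10, Hnrnpa1, Hnrnpa3, Hnrnph2, Hnrnpl, Hnrnpll, Rbm4, Rbm7, Rbm22, Rbm26, Rbm27, Rbm45, Rbm48 and Rbms1.

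The change computed from RPM alone is smaller than the deposited one, by a median of 0.48 on the log2 scale at member regions and 0.50 at all regions. From RPM, the median change was -0.29 for members and -0.77 for all genes, and the value lay below 0 for 34 of 49 members (all genes 85.3%). Its counting interval lay below 0 for 22 of 49 (all genes 62.1%) and above 0 for 12 of 49 (all genes 10.8%). With Rn45s and Lars2 left out of the totals, the value lay below 0 for 30 of 49 (all genes 79.9%), and the medians were -0.12 and -0.60. On either scale the members' median lay nearer to 0 than that of all genes. The direction itself turned for 8 of 125 member regions of at least 50 reads, in Srsf2, Srsf6, Hnrnpab, Hnrnpu and Rbmxl2, which are lower in the authors' deposited table and higher by RPM; this happened for 2.36% of all regions.

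Among the SR proteins, Srsf5 had the highest ratio, and the wild-type interval lay below 1 for Srsf2 and Srsf7. At Srsf5 (chr12:82050709-82051493, mm9, plus strand), m6A-CT was 7.25 RPM over 0.754 RPM of input in wild-type against 5.62 over 0.960 in Mettl3 KO. The ratio was 9.61 (6.72 to 14.2) in wild-type against 5.85 (4.27 to 8.16) in Mettl3 KO, with a log2 change of -1.11 in the authors' deposited table. Srsf11, an SR-related protein, had 29.2 over 9.74 RPM in wild-type against 12.6 over 5.15 RPM in Mettl3 KO at its 1725-bp region. Both of its library kinds were lower in Mettl3 KO, and the ratios of 2.99 and 2.45 had overlapping intervals; the authors' deposited table gives -0.67.

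Srsf2, which acts both in splicing and in transcription elongation, went in opposite directions depending on the measure. Its 500-bp region (chr11:116713906-116714405, mm9, minus strand) had 19.1 RPM of m6A-CT over 37.5 of input in wild-type against 24.0 over 35.4 in Mettl3 KO. The ratio thus went from 0.508 (0.466 to 0.554) to 0.680 (0.627 to 0.737), a log2 change of 0.42 (0.25 to 0.59), whereas the authors' deposited table calls the same region lower by -0.66. Srsf6 had 3 regions lower in the authors' deposited table, with -1.12, -0.37 and -0.63 from the 5′ to the 3′ end. From RPM their changes were 0.10, 0.10 and -0.11, each with an interval that holds 0.

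Srsf7, an SR protein with a zinc knuckle that also serves as an mRNA export adaptor, was the 1 Srsf gene called higher. Its 75-bp region (chr17:80603474-80603548, mm9, minus strand) had 0.814 RPM of m6A-CT over 1.69 of input in wild-type against 1.81 over 1.04 in Mettl3 KO. The ratio went from 0.483 (0.309 to 0.739) to 1.74 (1.20 to 2.55), without overlap, and the authors' deposited table gives a log2 change of 1.51. The neighbouring 50-bp region was likewise higher, with 1.35 in the authors' deposited table. Srsf4 had 3 regions, all called lower, with -1.10, -0.76 and -0.66 in the authors' deposited table from 5′ to 3′. Srsf9 had 2, with -0.54 and -0.75 in the authors' deposited table.

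The hnRNP genes split more evenly than the other families, and Hnrnpa0 fell furthest at the region with most reads. Hnrnpa0, a protein that binds AU-rich elements, is covered by 1 region of 2675 bp (chr13:58227240-58229914, mm9, minus strand). Its m6A-CT went from 108 RPM in wild-type to 46.9 in Mettl3 KO while input was 36.3 and 33.9 RPM. The ratio fell from 2.99 (2.82 to 3.17) to 1.38 (1.29 to 1.48), with -1.58 in the authors' deposited table at an FDR of 6.53e-130. Hnrnpdl, a relative of Hnrnpd, went from 9.29 over 3.84 RPM to 4.66 over 3.08 RPM, with -1.16 in the authors' deposited table. Hnrnpm, a regulator of alternative exons, was lower in all 7 of its regions, with -0.64 to -0.92 in the authors' deposited table. Its strongest region by reads had 77.8 over 45.0 RPM in wild-type against 60.5 over 44.8 RPM in Mettl3 KO.

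Hnrnpr, Hnrnph3 and Hnrnpf complete the 6 lowest at the region with most reads. Hnrnpab and Hnrnph1 follow at -0.57 each and Hnrnpu at -0.19 in the authors' deposited table. Hnrnpab had more input than m6A-CT in both genotypes, 32.4 over 21.5 RPM and then 28.9 over 21.0 RPM. At the 6540-bp region of Hnrnpr, m6A-CT was near the same in both genotypes (14.3 and 15.2 RPM) and input was higher in Mettl3 KO (1.84 and 2.94 RPM). The ratio went from 7.78 (6.17 to 9.92) to 5.17 (4.31 to 6.23), and the authors' deposited table gives -0.88. The other regions of Hnrnpr were lower too, with -0.53 to -2.15 in that table. Hnrnpf, which binds G tracts, had 99.1 over 46.8 RPM in wild-type against 78.2 over 41.7 RPM in Mettl3 KO, with -0.65 in the authors' deposited table. Hnrnph3 had -0.90 in the authors' deposited table at its 100-bp region, where the RPM interval (-1.04 to 0.25) holds 0. Its second region had the highest wild-type ratio of all, 48.2, but on 1 read of input, and the exact interval runs from 8.19 to 1950. The authors' deposited table gives -4.22 at that second region.

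Hnrnpk, Hnrnpd, Hnrnpul2, Hnrnpc and Hnrnpul1 were called higher. Hnrnpk, a poly-C binding protein, had 4 regions, each higher, with 0.89 to 1.5 in the authors' deposited table. At the one with most reads (chr13:58496945-58497044, mm9, minus strand) m6A-CT was 4.96 RPM in wild-type against 6.79 in Mettl3 KO, and input was 3.70 and 1.86. The ratio rose from 1.34 (1.08 to 1.66) to 3.65 (2.87 to 4.67), without overlap. Hnrnpd, also known as AUF1, had 9.51 over 2.93 RPM and then 8.29 over 1.16 RPM on 5375 bp, the longest region called higher. Its ratio went from 3.25 (2.66 to 3.99) to 7.17 (5.41 to 9.64), with 0.81 in the authors' deposited table. Hnrnpul2, related to Hnrnpu, had 17.6 over 5.50 RPM in wild-type against 13.3 over 2.02 RPM in Mettl3 KO, with 0.58 in the authors' deposited table. Hnrnpc, which binds uridine tracts, had 8.85 over 7.16 RPM and then 12.8 over 5.13 RPM, with 0.51 in the authors' deposited table. In Hnrnpd and Hnrnpul2 the m6A-CT RPM was lower in Mettl3 KO and the input RPM lower still, whereas in Hnrnpk and Hnrnpc the m6A-CT RPM was higher.

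At the region with most reads, the Rbm genes held both ends of the range. Rbm12b2, 1 of 2 neighbouring copies on chromosome 4, had the lowest change there, -2.51 in the authors' deposited table. Other Rbm regions of at least 50 reads were lower still in that table, at Rbmxl1 (-3.49), Rbm47 (-3.31) and Rbm34 (-2.80). The 3150-bp region of Rbm12b2 had 11.4 RPM of m6A-CT over 0.599 of input in wild-type against 3.62 over 0.843 in Mettl3 KO. The ratio went from 19.0 (12.9 to 29.2) to 4.30 (3.03 to 6.21), without overlap. Rbm12b1 had -1.61 in the authors' deposited table, and the authors' counting could have split reads between these copies. Rbm41 (chrX:136476076-136480425, mm9, minus strand) had 14.4 over 0.377 RPM in wild-type against 4.85 over 0.392 RPM in Mettl3 KO. Its ratio went from 38.1 (23.6 to 65.9) to 12.4 (7.78 to 20.7) at nearly equal input, with -2.02 in the authors' deposited table.

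Rbm6, Rbm12, Rbm18 and Rbm19 make up the rest of the lowest 6. Rbm6, a splicing regulator close to Rbm5 and Rbm10, had 5 regions, all lower, with -1.56 to -2.24 in the authors' deposited table. Its longest region had 30.7 over 3.15 RPM in wild-type against 10.2 over 3.10 RPM in Mettl3 KO. The 5′-most and the 3′-most region of Rbm6, both short, had wild-type ratios of 12.5 (5.76 to 32.0) and 14.1 (6.55 to 36.1), among the 5 highest of the members. Rbm12 had 82.5 over 12 RPM and then 23.8 over 8.25 RPM on 3475 bp, with -1.73 in the authors' deposited table at an FDR of 8.86e-55. Rbm18 had -2.18 in the authors' deposited table on 158 reads in all. Rbm19, a nucleolar protein of ribosomal RNA processing, was lower in each of 9 regions, with -1.13 to -1.79 in the authors' deposited table.

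The other 18 Rbm genes with a standing region were all called lower and ran from -1.66 at Rbm43 to -0.61 at Rbmxl2 in the authors' deposited table.

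At the upper end, Rbm3 and Rbm3os cannot be told apart. Rbm3, a cold-inducible RNA-binding protein, and Rbm3os, a transcript from the opposite strand, share bases of their regions on chromosome X. Rbm3 had 1 wild-type m6A-CT read and 17 in Mettl3 KO, and Rbm3os had 4 and 36. The authors' deposited table gives 4.13 and 3.17, on 62 and 86 reads in all. Rbm39, a splicing factor and transcriptional coactivator, had 6 regions of 25 to 175 bp, each higher, with 0.74 to 1.17 in the authors' deposited table. Where Rbm39 had most reads, m6A-CT was 3.00 RPM in wild-type against 6.02 in Mettl3 KO over 3.24 and 2.37 RPM of input. Rbm5 had 2.98 over 2.13 RPM and then 4.02 over 1.14 RPM at 50 bp, with 0.88 in the authors' deposited table.

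Of the 28 members with several regions of at least 50 reads, 4 had calls in both directions (14.3%, all such genes 12.3%). This share is near the background, and the genes were Rbm8a, Rbm28, Hnrnpu and Hnrnpul1. Rbm3os also had both, with 3.17 and -4.76 in the authors' deposited table, but its second region had fewer than 50 reads. Rbm8a, the exon junction protein Y14, had 3 regions of 100, 25 and 50 bp near its 5′ end that were higher, with 2.33, 3.10 and 0.84 in the authors' deposited table. Its 3′ region of 2091 bp was lower in the same table, with -0.63 in the authors' deposited table, on ratios of 3.79 (3.02 to 4.80) and 3.42 (2.73 to 4.32) that overlap. Rbm28, a nucleolar protein, had 1.41 and 1.77 in the authors' deposited table at its 2 upstream regions and -0.76 and -0.78 at the 2 downstream. Hnrnpu, the nuclear scaffold attachment factor A, had -0.19, 0.38, 0.48, -0.44 and -0.77 in the authors' deposited table from 5′ to 3′. Wild-type ratios of Hnrnpu were 1.10, 3.17, 4.60, 7.53 and 9.54 in that order, so the level over input was higher toward the 3′ end. Hnrnpul1 had -0.61 at its 5′-most region and 0.42, 0.78, 0.93 and 0.37 at the next 4 in the authors' deposited table. In Rbm33, an m6A-binding protein, all regions went one way, with 9 regions that were all lower, with -0.69 to -1.43 in the authors' deposited table.

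The calls differed with the length of the region. Of 72 member regions of at most 200 bp, 49 (68.1%) were lower in the authors' deposited table (all such regions 86.3%), and of 37 regions of at least 500 bp, 35 (94.6%) were (all such regions 98.2%). By RPM, 47 of the 72 short regions lay below 0 (all such regions 84.1%) and 32 of the 37 long ones did (all such regions 94.5%). The 29 higher regions of at least 50 reads lay in 13 genes and had a median of 100 bp, against 200 bp for the 96 lower ones. Of the 29 higher regions, 24 had more m6A-CT RPM and 27 had less input RPM in Mettl3 KO. Of the 96 lower regions, 85 had less m6A-CT RPM and 60 had less input RPM. In 28 members with several regions of at least 50 reads, the 3′-most wild-type ratio was above the median of the others in 24 (85.7%, all such genes 79.5%). The RPM change of the 3′-most region was below that of the others in 15 (53.6%, all such genes 51.8%), a share near the background.

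**Figure D2:**
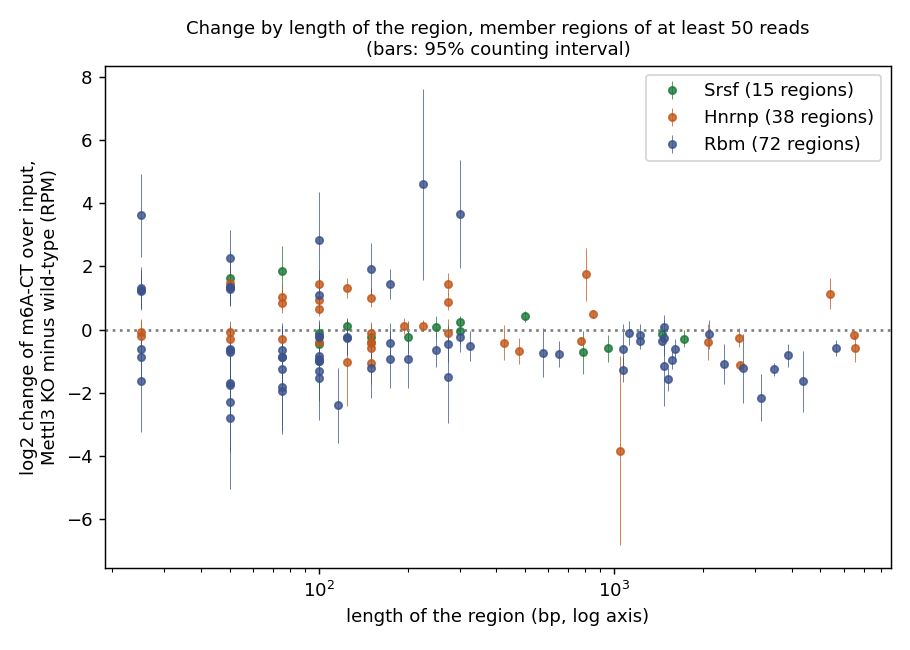
Log2 change of the RPM ratio (Mettl3 KO minus wild-type) against the length of each of the 125 member regions of at least 50 reads on a log axis in bp, with bars for the 95% counting interval and colours for the 3 families. Below 0 lie 47 of the 72 regions of at most 200 bp, 9 of the 16 between 200 and 500 bp, and 32 of the 37 of at least 500 bp.

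Input RPM, the level of an RNA in nuclei without the antibody step, differed between genotypes for several members. In bulk samples fewer cells with a transcript and less RNA per cell cannot be told apart. Input was read only at listed regions, and it is the denominator of the change that nearly all of them pass. The median log2 input change was -0.69 at the 29 member regions called higher and -0.10 at the 96 called lower, all of at least 50 reads. The part of this listing in the input counts was not tested. The interval of the input change lay below 0 for 21 of 49 members (all genes 31.7%) and above 0 for 5 of 49 (all genes 22.2%), with Hnrnp genes below 0 in 10 of 14. With Rn45s and Lars2 left out of the totals these counts were 13 of 49 (all genes 17.8%) and 17 of 49 (all genes 39.0%), and the median change went from -0.24 to 0.0745 over members and from -0.06 to 0.25 over all genes. Of the Hnrnp genes, 5 of 14 then lay below 0 and 5 of 14 above. The direction of input as a group therefore depends on the totals, while the large changes of the 4 genes named next keep theirs. Rbm47, an RNA-binding cofactor of cytidine editing, had 9.54 RPM of input in wild-type against 2.45 in Mettl3 KO, with m6A-CT at 19.5 and 4.64 RPM. Its ratio at this region, the one with most reads, was 2.05 (1.82 to 2.31) and 1.89 (1.5 to 2.40). Both library kinds were thus lower together there, with -0.63 in the authors' deposited table. At its other region (chr5:66488958-66489007, mm9) that table gives -3.31 at an FDR of 0.021. Rbms2 went from 5.46 to 2.41 RPM of input and Rbmxl2, a retrogene of Rbmx, from 13.4 to 5.00 RPM. Rbmxl1, another Rbmx retrogene, went from 4.39 to 8.68 RPM of input at an m6A-CT of 18.5 and 19.0 RPM. These last 3 genes were picked after their values were seen.

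**Figure D3:**
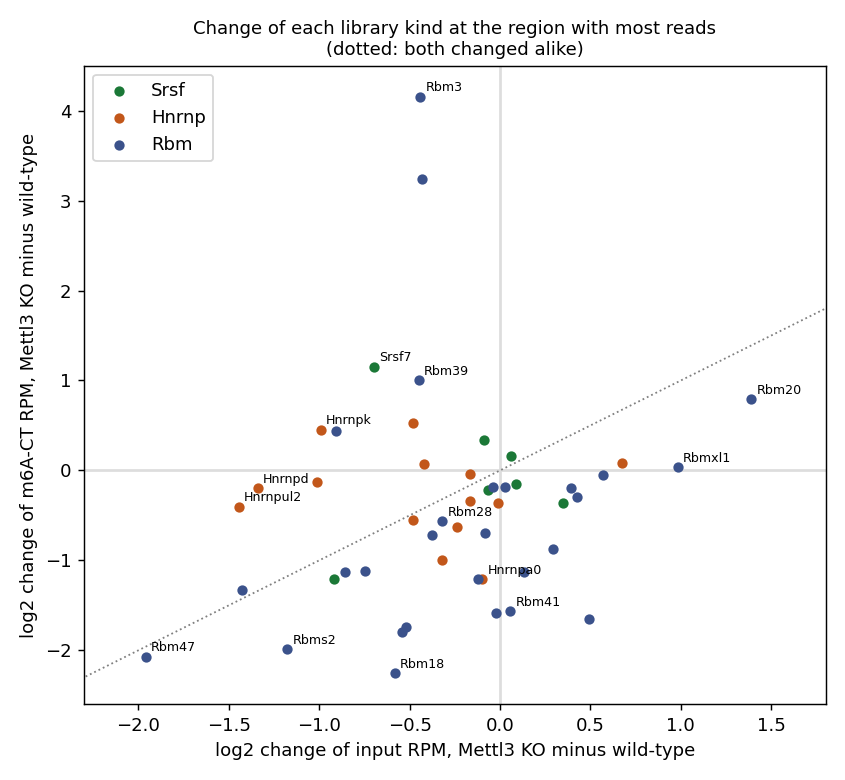
Log2 change of m6A-CT RPM against log2 change of input RPM (both Mettl3 KO minus wild-type) at the region with most reads of the 49 genes, coloured by family. Genes below the dotted line lost m6A-CT over input at that region, as Rbm41 and Hnrnpa0 did. Genes above it gained there, as Hnrnpk and Rbm39 did, and Rbm47 lies near it with both kinds lower.

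MeTPeak, which calls peaks of m6A-CT over input within 1 genotype, placed peaks on most members in both. Peaks stood on 54 of 67 members in wild-type (all genes 52.1%) and on 52 of 67 in Mettl3 KO (all genes 41.4%). The 9 members with no peak in either were Rbm3, Rbm3os, Rbm12b1, Rbm20, Rbm38, Rbm43, Rbm46, Rbmx and Rbmxl2. Every Hnrnp gene had one in both genotypes, 9 of 10 Srsf genes had one in wild-type and 10 of 10 in Mettl3 KO, and 26 and 23 of 38 Rbm genes did. All folds are the authors' own. Taking each gene's highest fold, 27 of the 48 members with peaks in both genotypes were lower without Mettl3 (56.2%, all such genes 76.7%), made up of 4 of 9 Srsf, 9 of 19 Hnrnp and 14 of 20 Rbm genes. The median highest fold of members went from 8.36 to 6.73, and that of all genes from 8.20 to 5.45.

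The highest wild-type folds belonged to Rbm12 (31.7), Hnrnpu (29.0), Hnrnpa0 (25.3), Rbm25 (19.6) and Rbm39 (17.3). In Mettl3 KO the highest were Hnrnpu (17.5), Srsf2 (15.5), Rbm39 (14.2), Rbm25 (13.8), and Hnrnpa1 and Rbm26 at 13.5 each. Rbm12 thus went from 31.7 to 6.00 and Hnrnpa0 from 25.3 to 8, both also lower in the authors' deposited table. For Hnrnpa0 the single wild-type peak of 2430 bp (chr13:58227488-58229917, mm9) stood against 3 shorter peaks in Mettl3 KO within the same stretch. Srsf11 went from 15.0 to 4.75. Srsf2 had a higher fold in Mettl3 KO, 15.5 against 10.7 in wild-type, and its Mettl3 KO peak (chr11:116711504-116712186, mm9) lay 3′ of the 500-bp region given above. Hnrnpa1 was 12.3 and 13.5, and Rbm25, a regulator of splice site choice, was 19.6 and 13.8. Some genes called higher at their region with most reads had a lower highest fold in Mettl3 KO. These were Hnrnpk (11.0 to 9.0), Rbm39 (17.3 to 14.2) and Hnrnpul2 (11.9 to 10.6), whereas Hnrnpc, Hnrnpd and Hnrnpul1 had a higher one.

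Peaks in 1 genotype alone were found for few members. Wild-type alone had a peak on 6 of 67 (all genes 16.8%), namely Rbm47 (highest fold 9), Rbm34 and Rbm41 (8.50 each), Rbm48 (4.67), Rbm44 (4.5) and Rbm18 (3.67). Rbm41 carried 8 such peaks and Rbm34 carried 6, and both genes were lower in all their regions in the authors' deposited table. Rbm47 was the gene whose input fell to 2.45 RPM, and the part of that in its missing Mettl3 KO peaks was not tested. Mettl3 KO alone had a peak on 4 of 67 (all genes 6.09%), namely Rbm45 (6.00), Rbm5 (5.14), Srsf7 (4.5) and Rbm10 (2.75). Srsf7 and Rbm5 were also higher in the authors' deposited table, whereas Rbm10 was lower there at each of 3 regions, with -1.12 to -1.20 in the authors' deposited table. On Srsf7, peaks of E14 at 100K and EPSC together cover chr17:80604015-80604437 (mm9), which holds a Mettl3 KO peak (chr17:80604261-80604361). On Rbm5, an E14 peak at 100K (chr9:107643069-107643318, mm9) lies within a Mettl3 KO peak (chr9:107642876-107643421). MACS2 thus placed a peak on both genes in E14. That list differs from the MeTPeak lists in caller, cell line and labelled antibody, so the 2 kinds of call are not alike. With 1 list for each genotype, the peaks found in 1 genotype alone have no replicate check.

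**Figure D4:**
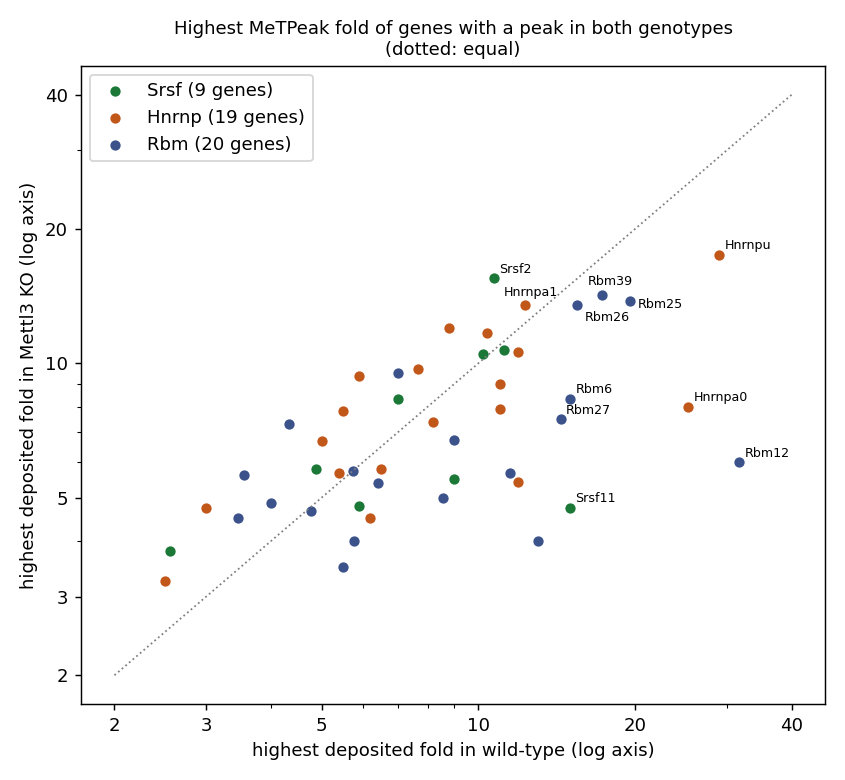
Highest deposited MeTPeak fold of the 48 genes with a peak in both genotypes, wild-type on the horizontal and Mettl3 KO on the vertical log axis, coloured by family. Rbm12 (31.7 and 6.00) and Hnrnpa0 (25.3 and 8) lie far below the dotted line of equal fold, and Srsf2 (10.7 and 15.5) lies above it.

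In the MACS2 lists of stem cells, the members were called more often than genes at large. A peak met a listed exon in 34 of 67 members in E14 at 100K nuclei (all genes 18.9%), 22 of 67 at 25K (all genes 9.93%) and 27 of 67 at 5K (all genes 14.9%). In EPSC it was 37 of 67 (all genes 27.2%), and in MEF 30 of 67 (all genes 39.7%), a share near the background. The lists hold 8052, 3923, 4644, 12183 and 38205 peaks in that order, so counts across lists move with list length. With the 3923 highest peaks by -log10 q from each list, the members were 22 in E14 at 100K (all genes 9.90%), 22 at 25K, 25 at 5K (all genes 13.0%), 22 in EPSC (all genes 10.8%) and 2 in MEF (all genes 6.90%). Listed exons came from embryonic stem cells and can miss exons used in MEF. Of the stem cell markers, 6 of 8 had a peak in E14 at 100K, 4 in EPSC and 1 in MEF. Of 5 fibroblast markers with a position, 4 had a peak in MEF and none in the other 2.

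Of the 3 families, SR protein genes showed the widest gap between stem cells and fibroblasts. Peaks stood on 8 of 10 Srsf genes in E14 at 100K and 9 of 10 in EPSC, and on 2 of 10 in MEF, namely Srsf6 and Srsf11. Srsf1, Srsf2, Srsf3, Srsf5, Srsf7 and Srsf10 had peaks in E14 at 100K and EPSC and none in MEF, as did Hnrnpa0, Hnrnpa1, Hnrnpdl, Hnrnph1, Rbm39 and Rbmxl2. These 12 are 17.9% of the members (all genes 2.72%). The reverse, a peak in MEF and in neither of those 2, held for 5 of 67 (all genes 17.0%): Hnrnpll, Rbm10, Rbm12b1, Rbm12b2 and Rbms1. At Srsf2 the peaks were chr11:116711468-116711990 in E14 at 100K (5.01-fold), chr11:116711478-116711990 in EPSC (4.13-fold) and chr11:116711608-116711990 in E14 at 25K (3.82-fold). These mm9 positions share their upper end and overlap that Srsf2 MeTPeak peak. Srsf7 had 2 peaks in E14 at 100K and 3 in EPSC, with folds of up to 9.96 and 10.0. Srsf4 had 2 in EPSC alone, and Srsf9 had none in any list.

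The Srsf genes with a peak in E14 were fewer at 25K and 5K nuclei than at 100K, as were genes at large (18.9, 9.93 and 14.9%). At 100K, 25K and 5K nuclei the Srsf genes with a peak numbered 8, 3 and 3 of 10, the Hnrnp genes 13, 11 and 14 of 19 and the Rbm genes 13, 8 and 10 of 38. At equal list length the counts were 6, 3 and 3 for Srsf, 10, 11 and 13 for Hnrnp and 6, 8 and 9 for Rbm, beside 9.90, 9.93 and 13.0% of all genes. With 1 list for each amount, the differences between amounts and between families were not tested.

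A peak in all 5 lists was found for 8 of 67 members (all genes 4.96%): Hnrnpl, Hnrnpm, Hnrnpu, Hnrnpul2, Rbm4, Rbm12, Rbm26 and Rbm33. Rbm26, which takes part in nuclear RNA decay, had 5, 4, 3, 11 and 6 peaks in E14 at 100K, 25K and 5K, EPSC and MEF. Hnrnpu had 9, 5, 3, 11 and 10 peaks, the most of any member with 38 in all. Rbm19 had 18 peaks in MEF and 5 in EPSC and none in E14, and Rbm33 had 3, 1, 2, 4 and 13. Hnrnpul2 had 4, 4, 2, 7 and 5. Of 212 merged peak stretches on members, 118 were in 1 list (55.7%, all genes 72.7%) and 1 was in all 5 (0.472%, all genes 1.46%), at chr2:155920936-155924139 (mm9) on Rbm12. That stretch overlaps the Rbm12 region that fell from a ratio of 6.86 (6.26 to 7.53) to 2.88 (2.56 to 3.24) in Mettl3 KO. In Rbm12 the folds were 4.13, 5.94, 4.87, 8.46 and 10.3 in the order of the lists. Of the 201 stretches called in E14 at 100K, EPSC or MEF, 21 were in all 3 (all genes 8.72%), 27 in E14 and EPSC without MEF (all genes 2.52%), and 72 in MEF alone (all genes 67.0%).

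**Figure D5:**
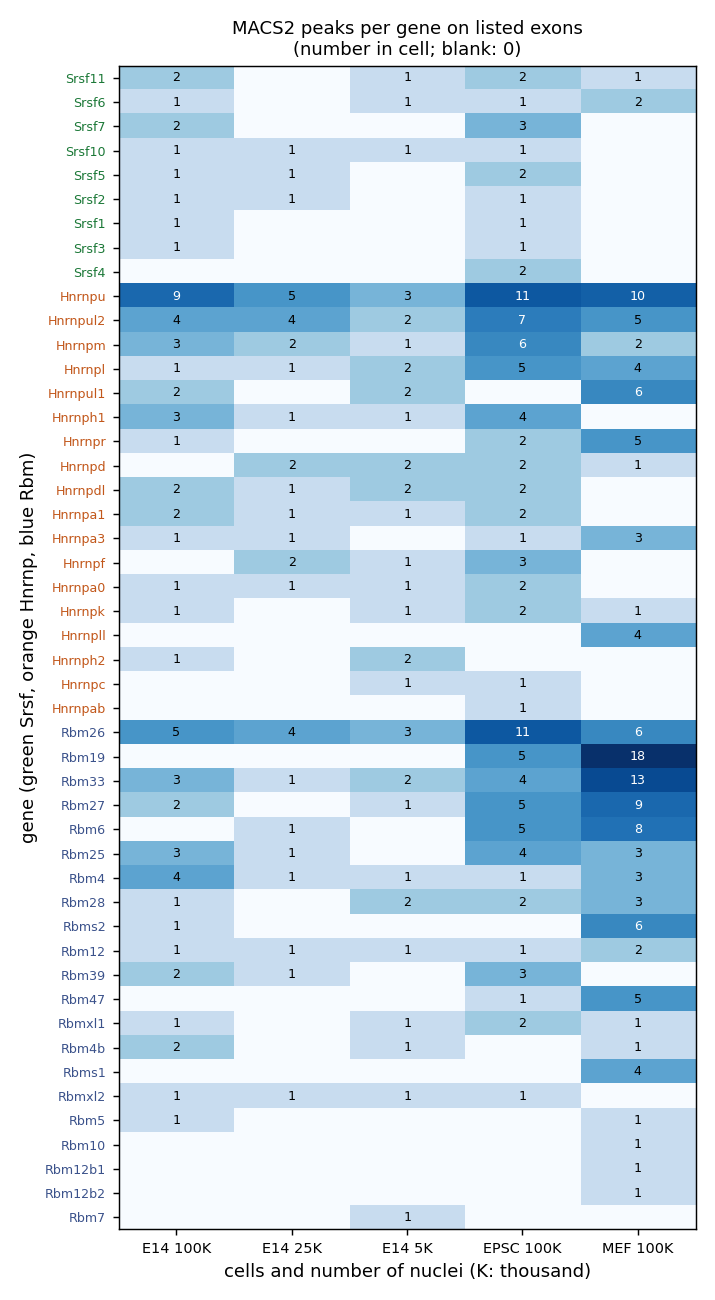
Number of MACS2 peaks on listed exons for each member with at least 1 peak (rows, gene names coloured by family) in the 5 mouse lists (columns, with the labelled number of nuclei). Hnrnpu and Rbm26 are filled in every column, Rbm19 reaches 18 peaks in MEF, and most Srsf rows are empty in MEF.

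The 2 callers met more often on members than elsewhere in stem cells. Of the 134 wild-type MeTPeak peaks on members, 26.1% overlapped an E14 peak at 100K (all MeTPeak peaks 11.9%) and 32.8% an EPSC peak (all 18.7%), against 34.3% for MEF (all 44.2%). Peaks on members were also longer, which raises the odds of an overlap. Wild-type MeTPeak peaks had a median of 492 exonic bp on members and 299 over all. Median lengths were 333.5 and 216 bp in E14 at 100K, and 269.5 and 237 bp in EPSC. The part of length in these shares was not tested. Wild-type and E14 cells are different lines, and their labels give different antibodies.

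Other genes of the splicing pathway are given by lists, each to be read beside all genes, of which 89.7% were lower and 10.3% higher in the authors' deposited table and 85.3% below 0 by RPM. The spliceosome list had 17 genes lower and 10 higher of 27 with a region, with a median of -0.49 in the authors' deposited table. By RPM, 14 of the 27 lay below 0 with a median of -0.0062. The extremes were Prpf39 (2.62), Sf3a3 (-1.68) and Prpf4 (-1.61) in the authors' deposited table, on 123, 133 and 2288 reads in all. Of the SR kinases and SR import factors, 4 of 6 were lower and 2 higher, with a median of -0.95 in the authors' deposited table and, by RPM, 4 below 0 and a median of -0.43. Dyrk1a, which phosphorylates splicing factors, had 165 over 10.9 RPM in wild-type against 60.5 over 11.4 RPM in Mettl3 KO, with -2.03 in the authors' deposited table. Srpk2 had -1.38 and Clk3 had -1.23 in the authors' deposited table.

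SR-related proteins were lower in 14 of 17 and higher in 3, with a median of -0.76 in the authors' deposited table, and by RPM 12 lay below 0 with a median of -0.32. Scaf8 had -2.09, Son had -1.81 and Zranb2 had -1.75 in the authors' deposited table, and m6A-CT on Son, a nuclear speckle protein, went from 533 to 130 RPM over 87.3 and 51.9 RPM of input. Other RNA-binding regulators were lower in 26 of 34 and higher in 8, with a median of -0.65 in the authors' deposited table. Celf2 (-2.75), Esrp2 (-2.71) and Cirbp (-2.47) lay furthest in the authors' deposited table, on only 57, 147 and 98 reads in all. By RPM, 19 of these 34 lay below 0, with a median of -0.24. Genes of nonsense-mediated decay and the exon junction were lower in 8 of 9 and higher in 1, with a median of -0.79 in the authors' deposited table, and by RPM 7 lay below 0 with a median of -0.27. Smg8 (-1.79), Smg1 (-1.54) and Upf2 (-1.26) lay furthest in the authors' deposited table. The medians of 4 of these 5 lists, like that of the members, lay between -0.49 and -0.79 in the authors' deposited table, and each of the 5 lay nearer to 0 than that of all genes, both there (-1.25) and by RPM (-0.77). These medians too cover listed regions alone, and the part of reads per region in them was not tested.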

How the data were processed

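The submitters' processing notes name Trim Galore, STAR 2.7.2, MACS2 and, for mouse, the mm9 build. The sample descriptions name MeTPeak and exomePeak2 for the genotype set, and their settings are not given in the sources used here. In the exomePeak2 table the authors deposited RPM, a log2 fold change and an FDR. All RPM values (100%) come out as whole reads at a tolerance of 0.01 reads, from which reads, totals and counting intervals were computed (exact for ratios, from the reads of 4 columns for changes); 3 reads would be 0.0763 RPM in wild-type m6A-CT. In the MeTPeak lists the authors deposited a fold ratio, a p-value as the score column, log10 of p and FDR, and block counts among other columns. In the MACS2 lists the authors deposited a fold ratio, -log10 p and q (q at least 10), a score and summit offsets.

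The study's 32 libraries form 16 groups of 2, and whether these are separate cultures is not given. Whether the libraries of a group were pooled is not stated, nor for the MACS2 lists, each filed under replicate 1. Values per library were not analysed here, so edgeR, planned for such counts, was not run, and calls are the deposited FDR or a counting interval. How the deposited log2 fold change is offset from RPM is not stated. MACS2 peaks were named by an overlap of at least 1 bp with exon blocks of the genotype files, without strand. Regions named for 2 genes (5 with a member) were left out. Reads shared by overlapping or copied genes cannot be placed (11 members). No mm9 annotation was used, so exon, intron and UTR are not given, and no sequence is printed. The HEK293T list is human and was not used here.

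The members and lists were chosen with earlier results of these data known. Named are every Srsf gene, for Hnrnp and Rbm the 6 lowest and 4 highest deposited changes past FDR 0.05 at the region with most reads, the 5 highest wild-type ratios, genes with peaks in all 5 MACS2 lists and the 5 with most peaks, the 5 highest MeTPeak folds in each genotype, the 4 highest among genes with a peak in 1 genotype, and up to 3 genes of each other list; other genes were picked after their values were seen (Rbm8a, Rbm28 and the regions of Hnrnpul1 among them). Marker lists covered stem cells, fibroblasts, trophectoderm and endoderm (no MeTPeak peak in either genotype, 1 gene with a peak in MEF), and blood and endothelium (1 gene with a MeTPeak peak in both genotypes). Python 3.11.15, numpy 2.4.6 and pandas 2.3.3 were used, and the counting interval was tested on simulated data. Alternatives changed the totals, the read minimum, the region that stands for a gene, the fold and q thresholds, the overlap rule and the list length.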

Additional observations from a re-analysis of the deposited data

How the results depend on the processing

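Of 69 alternatives to 16 results, 53 kept direction and size, 15 moved and 1 reversed. Without the reads of Rn45s and Lars2, genes above 1 went from 39 to 18 in wild-type and from 38 to 16 in Mettl3 KO. Input changes went from 21 to 13 lower and 5 to 17 higher, and the median input change turned from -0.24 to 0.0745. Genes higher over input in Mettl3 KO numbered 10 by the deposited change, 15 from RPM and 19 from RPM without those 2 genes, with medians of -0.76, -0.29 and -0.12. At a MeTPeak fold of at least 10, genes with a peak went from 54 to 20 and from 52 to 11. At a -log10 q of at least 20, E14 genes went from 34 to 22 at 100K, 22 to 13 at 25K and 27 to 13 at 5K. At equal list length, genes with a peak went to 22 in E14 at 100K and EPSC and to 2 in MEF. The smaller counts follow from fewer peaks; elsewhere the cause was not tested.

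Leaving out the 11 overlapping or copied members, an alternative chosen after seeing the data, moved no count of the 16 results by more than 1.5 times and left the median input change at -0.17 and the median change over input at -0.75. No paired analysis was possible because the columns carry no replicate; leaving out a replicate was likewise not run. Regions under 50 reads numbered 7, and depth of the MACS2 lists is unknown.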

Other observations

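Regions of fewer than 50 reads stood in 4 member genes and entered no count by gene. Rbm20, a regulator of titin splicing, had 4 such regions, each with 0 input reads in wild-type (which allows up to 0.0665 RPM) and 7 to 12 in Mettl3 KO, and with 8 to 15 m6A-CT reads in wild-type and 8 to 18 in Mettl3 KO. Rbm46 had 7 m6A-CT reads and 0 input reads in wild-type. Rbmx had 0 input reads in Mettl3 KO (which allows up to 0.0588 RPM) and 13 m6A-CT reads. The second region of Rbm3os had 34 m6A-CT reads over 1 input read in wild-type, a ratio of 39.0 with an exact interval of 6.54 to 1585.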
